A study of Mus musculus with 24 samples.

Results

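The miR-30 family was followed through 7 mature miRNAs on a mouse miRNA microarray, chosen by name. Of these, 5 are read from the 5p arm of their hairpins (mmu-miR-30a-5p, mmu-miR-30b-5p, mmu-miR-30c-5p, mmu-miR-30d-5p and mmu-miR-30e-5p) and 2 from the 3p arm (mmu-miR-30a-3p and mmu-miR-30e-3p). They are 7 of the 1881 mouse miRNAs on the array, of which 394 were detected on at least 1 of the 24 arrays and 79 on all 24. The 5p members were among these 79 miRNAs, whereas mmu-miR-30a-3p was detected on 21 arrays and mmu-miR-30e-3p on 16.

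Tissues came from C57BL/6J mice in 3 groups, namely normal eyes without a lens, eyes with a 0 D lens, and eyes in which a −30 D lens had been worn from 3 weeks of age for 3 weeks to induce myopia. Each group was represented by 8 tissues, the cornea, iris, crystalline lens, retina, choroid, sclera, suprachiasmatic nucleus (SCN) and lateral geniculate nucleus (LGN), with 1 one-color array per tissue and group. RNA of 3 mice was pooled per array where the methods state it (ocular tissues, normal and −30 D groups), the choroid samples are described in the methods as RPE/choroid, which includes the pigment epithelium, and the time of wear of the 0 D lens is not given in the sources used here. The 8 tissues of a group lay on 1 slide, so that lens group and slide cannot be told apart, and the 3 arrays of a tissue were therefore 3 differently treated samples and not copies of 1 condition.

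Each array detected 129 to 249 miRNAs. Marker miRNAs of the labelled tissues were present. The summed scaled signal of the 3 photoreceptor markers was 14498 to 16170 in the retina, and the 3 neuron markers were detected on every array of the retina, SCN and LGN, and also of the choroid (586 to 1011). The 4 surface epithelium markers summed to 1959 to 2231 in the cornea, and the endothelial mmu-miR-126a-3p was highest in the choroid at 1030 to 1203. mmu-miR-184-3p, a marker of cornea and crystalline lens, was at 29710 to 36854 in the cornea and 11130 to 16390 in the crystalline lens. The 2 pigment cell markers were highest in the crystalline lens (1227 to 1377), above the iris (1067 to 1211) and choroid (830 to 1009). Photoreceptor markers were also detected in the choroid (813 to 1436), sclera (441 to 1094), cornea (214 to 244) and crystalline lens (131 to 427, with 1 of the 3 on no array). Neuron markers summed to 327 to 596 in the sclera and 119.7 to 390 in the crystalline lens. In each of these, 1 of the 3 markers was detected on every array and 1 on none. The crystalline lens also had striated muscle markers at 361 to 402, above every other tissue. The part of these markers in the values of their tissues was not tested. In RNA from whole tissue, fewer cells of a type and less RNA per cell cannot be told apart.

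A miRNA hairpin is cut by Dicer into a duplex of a 5p and a 3p strand. Usually 1 strand is retained in an Argonaute protein and the other is degraded. The retained strand pairs with target mRNAs mainly through its seed, bases 2 to 8 from the 5′ end, so that miRNAs with the same seed share many targets. The miR-30 family is one of the broadly expressed vertebrate families, and its 5p strands are known for repression of genes of autophagy, the cytoskeleton and epithelial-mesenchymal change. Its hairpins lie in several clusters, so that members can be transcribed together or apart.

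Mature sequences were available from RefSeq (GRCm38.p6) for 5 of the 7 members. They are shown because the family is defined by its seed. Bases 2 to 8 are in capitals in each.
mmu-miR-30a-5p: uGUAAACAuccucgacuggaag
mmu-miR-30c-5p: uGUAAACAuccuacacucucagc
mmu-miR-30e-5p: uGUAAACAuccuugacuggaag
mmu-miR-30a-3p: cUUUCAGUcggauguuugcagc
mmu-miR-30e-3p: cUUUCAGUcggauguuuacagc

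The 5p strands of miR-30a, miR-30c and miR-30e have the seed GUAAACA, and those of miR-30a and miR-30e differ by the single substitution C13U, counted from 1 at the 5′ end. The 3p strands of miR-30a and miR-30e have another seed, UUUCAGU, and differ by G18A. Because probe sequences were not among the files, how far the probe of 1 member also binds another was not measured, and this touches miR-30a and miR-30e in particular. A further array miRNA, mmu-miR-384-5p, has the seed of the 5p members but departs from miR-30a after base 8. The 3p strands of the 2 miR-30c hairpins have a seed of their own.
mmu-miR-384-5p: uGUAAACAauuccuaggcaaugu
mmu-miR-30c-1-3p: cUGGGAGAggguuguuuacucc
mmu-miR-30c-2-3p: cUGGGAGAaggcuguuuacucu

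Hairpin sequences with both arms in capitals show which strands come from 1 precursor. Mir30a lies at chr1:23272269-23272339 (plus strand) and Mir30c-2 at chr1:23291701-23291784 (plus strand), with starts 19432 bases apart and no other gene of the table spanning them. Mir30c-1 at chr4:120769534-120769622 and Mir30e at chr4:120772606-120772697, both on the minus strand with starts 3072 bases apart, lie within the span of Nfyc, which encodes a subunit of the transcription factor NF-Y.
Mir30a: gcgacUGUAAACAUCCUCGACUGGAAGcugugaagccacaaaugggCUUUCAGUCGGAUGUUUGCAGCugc
Mir30e: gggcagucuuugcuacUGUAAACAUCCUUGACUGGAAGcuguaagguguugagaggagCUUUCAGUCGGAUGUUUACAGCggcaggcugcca

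The summed signal of the 5p members was highest in the retina and lowest in the crystalline lens, with a 3.60-fold difference between the means. Levels are scaled signals, the background-subtracted fluorescence of all probes of a miRNA above 3 errors after the arrays were brought to the same 75th percentile, and are given as mean ± SD over the 3 arrays of a tissue. The sum was 1421 ± 88.4 (n = 3) in the retina, 1123 ± 60.6 in the iris and 946 ± 76.8 in the choroid. It was 794 ± 52.7 in the LGN, 734 ± 87.1 in the SCN, 718 ± 130 in the sclera, 702 ± 57.1 in the cornea and 395 ± 48.3 in the crystalline lens. The arrays of the retina, iris and choroid lay above those of the next tissue in this order without overlap, and all cornea arrays lay above the crystalline lens. The LGN, SCN, sclera and cornea, in contrast, overlapped with their neighbors. Retina, iris, choroid and crystalline lens kept their places under all 7 settings compared.

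mmu-miR-30a-5p had the largest part of the family's fluorescence in every tissue. Its scaled signal in normal, 0 D and −30 D arrays, an order kept for all values below, was 641, 561 and 556 in the retina, 511, 460 and 522 in the iris, and 448, 473 and 514 in the choroid. The cornea had 380, 332 and 402, the sclera 372, 419 and 315, and the LGN 344, 339 and 379. In the SCN it was 348, 245 and 305, and in the crystalline lens 198, 248 and 250. The retina was above every other tissue on all 3 arrays, whereas from the cornea down each tissue overlapped with the next, including the SCN and the crystalline lens. The means of retina and crystalline lens differed 2.53-fold, the smallest such fold among the 5p members.

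mmu-miR-30e-5p, which differs from mmu-miR-30a-5p by 1 base, had a different order of tissues below the retina and iris. Its signal was 152, 151 and 132.8 in the retina and 119.8, 121 and 119.8 in the iris, followed by the LGN at 87.2, 102 and 93.8 and the SCN at 96.4, 86.6 and 88.7. The cornea (63.1, 76.9 and 78.5), choroid (69.6, 75.9 and 72.1) and sclera (59.6, 70.8 and 49.3) overlapped. The crystalline lens was lowest at 28.5, 36.0 and 31.5, without overlap. The 2 brain regions thus lay above the cornea, choroid and sclera for mmu-miR-30e-5p, while for mmu-miR-30a-5p the choroid lay above both.

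mmu-miR-30c-5p can arise from either of 2 hairpins, on chromosomes 1 and 4, and the array does not tell them apart. It was at 311, 322 and 286 in the retina, 214, 224 and 238 in the iris, 158, 194 and 188 in the LGN, and 181, 164 and 171 in the SCN. The choroid had 140, 197 and 163, the sclera 116, 156 and 109, the cornea 109, 112 and 126.4, and the crystalline lens 53.2, 82.8 and 65.3. Retina and iris stood above all other tissues and the crystalline lens below them, and the 5 tissues between overlapped with their neighbors. Retina and crystalline lens differed 4.57-fold in the means, and 4.54-fold for mmu-miR-30e-5p.

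mmu-miR-30d-5p was at 294, 265 and 264 in the retina, 219, 205.5 and 248 in the iris, and 155, 197 and 177 in the choroid. The SCN (158, 119 and 146), sclera (112, 174 and 108), LGN (119, 127 and 147) and cornea (102, 100.2 and 127) overlapped. The crystalline lens was lowest at 45.3, 46.5 and 50.2, 5.79-fold below the retina. For mmu-miR-30b-5p the gap was the widest of the 5 members at 6.66-fold, with 113, 119.8 and 95.2 in the retina against 15.2, 17.3 and 16.7 in the crystalline lens. The iris (51.1, 56.9 and 59.5) and choroid (45.9, 59.3 and 50.6) came next, and the SCN, sclera, cornea and LGN had means from 31.1 to 34.4. The lowest retina array was thus above the highest of any other tissue for mmu-miR-30b-5p, and this held for each of the other 5p members.

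**Figure D1:**
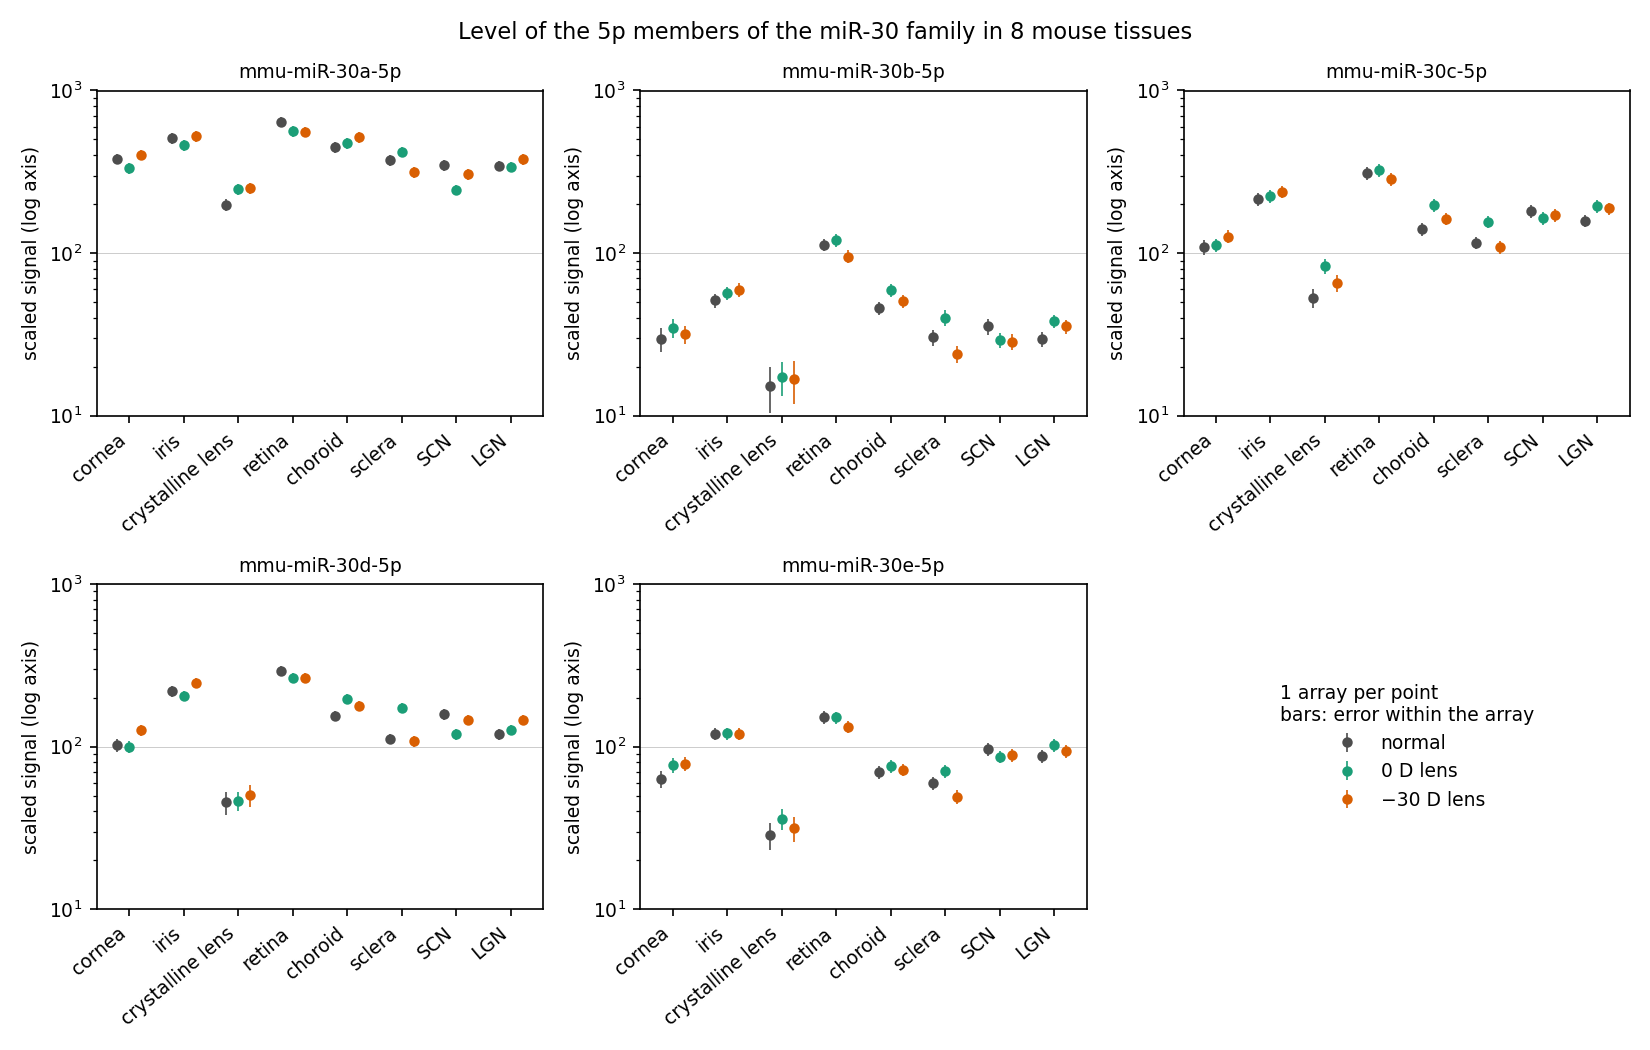
Scaled signal (log axis) of the 5 members of the 5p arm in 8 tissues, 1 point per array with lens groups in color and bars for the error within the array. The 3 retina arrays are the highest for every member, and the crystalline lens is the lowest, with an overlap to the SCN for mmu-miR-30a-5p.

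The members were then compared between tissues with limma over the 79 miRNAs detected on all arrays, with the lens group in the model. All 5 differed over the 8 tissues at an adjusted p under 0.05, as did 100% of the 79 miRNAs tested, so that such a difference was not particular to the family. Against the mean of the other 7 tissues, all 5 were higher in the retina (89.9% of miRNAs were called there in either direction), by a log2 difference of 0.70 ± 0.10 (SE) for mmu-miR-30a-5p and of 1.69 ± 0.10 for mmu-miR-30b-5p (adjusted p = 5.48e-06 and 7.47e-11). The median difference in the retina was 1.12 for the members and −0.13 for all 79. All 5 were also higher in the iris, from 0.43 to 0.80 (73.4% called). In the crystalline lens all 5 were lower (86.1% called), from −0.83 ± 0.10 for mmu-miR-30a-5p to −1.76 ± 0.12 for mmu-miR-30d-5p (adjusted p = 4.30e-07 and 1.61e-10). The median in the crystalline lens was −1.43 for the members and −0.13 for all. After a normexp background correction, which adds an offset that weighs most on dim arrays, mmu-miR-30b-5p was higher in the crystalline lens by 0.26 (adjusted p = 0.00756), and mmu-miR-30e-5p there (−0.12, adjusted p = 0.0901) and mmu-miR-30b-5p in the iris (−0.035, adjusted p = 0.718) did not pass. The second probe of mmu-miR-30b-5p was above 3 errors in the retina and not in the crystalline lens, and with its brightest probe alone the differences were 1.62 and −1.40.

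Other tissues split the family, and these splits depended on the processing and on single groups. In the choroid, 3 members were higher (mmu-miR-30a-5p, mmu-miR-30b-5p and mmu-miR-30d-5p, by 0.37 to 0.46, 63.3% called), while mmu-miR-30c-5p at 0.10 and mmu-miR-30e-5p at −0.14 did not pass. With the −30 D arrays left out 1 member was called there (45.7% of all miRNAs). After normexp, mmu-miR-30b-5p (−0.048, adjusted p = 0.661) and mmu-miR-30d-5p (0.19, adjusted p = 0.103) did not pass. In the LGN, mmu-miR-30c-5p and mmu-miR-30e-5p were higher by 0.24 and 0.30 (adjusted p = 0.0397 and 0.00383, 77.2% called), and the other 3 members did not pass. With any group left out 1 member was called in the LGN (67.9% to 72.3% of all miRNAs), and after normexp both were near 0 (0.0069 and −0.070).

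In the SCN, mmu-miR-30e-5p was higher by 0.23 (adjusted p = 0.0169), whereas mmu-miR-30a-5p fell by 0.42 and mmu-miR-30b-5p by 0.38 (adjusted p = 0.00109 and 0.00271, 86.1% called). The direction of mmu-miR-30e-5p was not stable. Its difference was −0.52 after quantile normalization (adjusted p = 1.35e-05), −0.056 after normexp (adjusted p = 0.432), 0.13 with the percentile taken without the members (adjusted p = 0.170) and 0.01 with the brightest probe (adjusted p = 0.887). Without the normal or the −30 D arrays it did not pass either (adjusted p = 0.208 and 0.0602). Without the 0 D array of the SCN, whose mmu-miR-30a-5p signal of 245 stood below the other SCN arrays, the difference was −0.29 for mmu-miR-30a-5p (adjusted p = 0.0309) and −0.26 for mmu-miR-30b-5p (adjusted p = 0.0548).

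In the cornea, mmu-miR-30b-5p, mmu-miR-30c-5p and mmu-miR-30d-5p were lower by 0.32 to 0.49 (83.5% called). With the normal arrays left out 1 member was called there (80.7% of all miRNAs). The cornea difference of mmu-miR-30b-5p was 0.068 after quantile normalization (adjusted p = 0.649) and 0.21 after normexp, called in the opposite direction (adjusted p = 0.0311). In the sclera, mmu-miR-30b-5p, mmu-miR-30c-5p and mmu-miR-30e-5p were lower by 0.35 to 0.47 (83.5% called). With the −30 D arrays left out 1 was called (74.1% of all miRNAs), and after quantile normalization mmu-miR-30c-5p did not pass (−0.14, adjusted p = 0.122). The error in these tests is the spread between the 3 arrays of a tissue, pooled over tissues, once shared lens group differences are removed. Tissues of 1 group can come from the same mice, which the fit does not model.

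Over the 8 tissue means, the log2 range of the members was 1.34 to 2.73, and the median of the 74 other miRNAs detected everywhere was 3.36. Pairs of members varied together, with Pearson's r over the 8 tissue means from 0.794 for mmu-miR-30a-5p and mmu-miR-30e-5p to 0.972 for mmu-miR-30c-5p and mmu-miR-30e-5p. These are descriptions of 8 points that share arrays and scaling. Of the 74 other miRNAs, those most like the summed 5p level were mmu-miR-26a-5p (r = 0.945), mmu-let-7f-5p (r = 0.922) and mmu-let-7a-5p (r = 0.908), where the median of the 74 was 0.094. mmu-miR-26a-5p, for example, was at 521, 527 and 442 in the retina and 182.8, 207 and 185 in the crystalline lens.

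The composition of the 5p signal differed between tissues. The share of a member is its part of the summed 5p fluorescence on 1 array. Probes differ in how brightly they report a molecule, so that shares were compared between tissues and not read as numbers of molecules. The share of mmu-miR-30a-5p was 58.2%, 57.6% and 60.4% in the crystalline lens, with a mean of 58.7% ± 1.5 (SD, n = 3). It was 42.5%, 39.5% and 41.7% in the retina and 42.5%, 38.1% and 41.2% in the SCN. The crystalline lens lay above all other arrays, the highest of which was the normal cornea at 55.5%. After normexp this share was 46.7% in the crystalline lens and no longer the highest.

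mmu-miR-30b-5p had the smallest part of the signal, and its share was highest in the retina, at 7.46%, 8.44% and 7.14%, against at most 5.91% on any other array. It exceeded the mean of the other tissues by 3.09 percentage points, and by 0.152 after normexp. After normexp the retina was no longer the highest, at 7.27% against 10.9% in the crystalline lens and 8.43% in the cornea. mmu-miR-30c-5p had its highest mean shares in the SCN (23.6%) and LGN (22.7%) and its lowest in the cornea (16.5%). mmu-miR-30d-5p had from 12.1% in the crystalline lens to 19.9% in the iris, and mmu-miR-30e-5p from 7.69% in the choroid to 12.4% in the SCN. These differences moved members that share a seed against each other within 1 total. The share of mmu-miR-30e-5p was highest in the crystalline lens (12.6%) after normexp, above the SCN (11.8%).

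**Figure D2:**
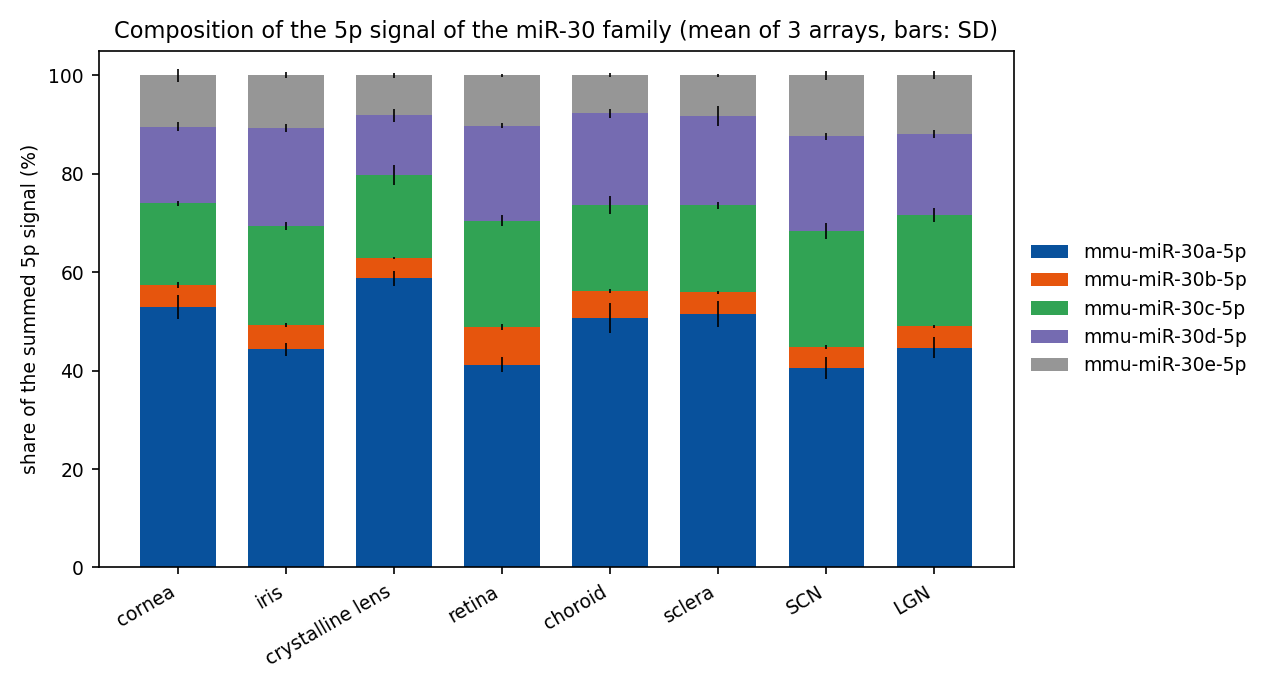
Share of each of the 5 members in the summed 5p signal (%), stacked per tissue, as the mean of 3 arrays with SD bars. The part of mmu-miR-30a-5p is largest in the crystalline lens (58.7%) and smallest in the SCN (40.6%), and that of mmu-miR-30b-5p is largest in the retina (7.68%).

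The retina, SCN and LGN, which consist mainly of neural tissue, were set against the other 5 tissues in 8 quantities by a two-sided exact permutation test over tissue means. The smallest p that 3 of 8 tissues allow is 0.0179. The share of mmu-miR-30c-5p was 22.6% in the neural tissues and 17.7% in the others, with every neural mean above every other (exact p = 0.0179, adjusted over the 8 quantities 0.143). The share of mmu-miR-30a-5p was lower by 9.48 percentage points (exact p = 0.0714, adjusted 0.190) and that of mmu-miR-30e-5p higher by 2.45 (exact p = 0.0714, adjusted 0.190). The summed 5p level differed by 0.36 on the log2 scale (exact p = 0.429, adjusted 0.571). No quantity passed after adjustment.

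The 3p strands gave less fluorescence than the 5p strands and were not detected everywhere. mmu-miR-30a-3p was at 29.8, 31.1 and 28.8 in the retina, 22.7, 26.5 and 25.2 in the choroid, 23.9, 23.2 and 23.2 in the iris, and 19.0, 20.996 and 21.2 in the LGN. The cornea had 15.5, 15.4 and 15.7, the sclera 17.9, 13.8 and 9.78, and the SCN 11.8, 13.5 and 11.4. The retina was above every other tissue and the SCN overlapped with the sclera, while the 3 sclera arrays were spread more widely than those of any other tissue. Of the 2 probes of mmu-miR-30a-3p, both were above 3 errors on the normal sclera array and 1 on the 0 D and −30 D arrays. None of the crystalline lens arrays detected it. The limits there, the sum of its probes at 3 errors each, were 22.2 to 27.5, so that the retina was at least 1.17-fold higher and no bound followed for the other 6 tissues.

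mmu-miR-30e-3p was at 15.04, 20.5 and 14.2 in the retina, 9.21, 12.7 and 11.3 in the LGN, and 11.1, 10.8 and 10.3 in the iris. It was at 9.75, 8.78 and 8.77 in the SCN and 6.94, 8.42 and 7.29 in the choroid, and it was detected at 4.87 in the normal sclera. Among the arrays that detected it, those of the retina were again the highest, while the LGN and iris overlapped. The miRNA was not detected in the cornea, in the crystalline lens or in the sclera of the 0 D and −30 D groups. Limits in the latter were 11.4 and 10.3, above the level of the normal sclera, so that no difference could be measured there.

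The other arms of the family's hairpins were at or near the detection limit. mmu-miR-30b-3p was detected on 14 arrays, at 12.8, 10.9 and 11.5 in the retina, 8.81, 7.25 and 10.1 in the iris, 7.72, 6.73 and 8.73 in the choroid, and 1.65, 1.48 and 1.97 in the LGN. In the sclera it was at 6.31 and 3.03 on the normal and 0 D arrays and not detected on the −30 D array, which had a limit of 10.3. On the LGN arrays and the 0 D sclera array 1 of its 4 probes was above 3 errors, and on the other 10 arrays 2 were, so that no fold is given between them. mmu-miR-30c-2-3p was detected on 11 arrays, at 9.21, 8.72 and 8.22 in the retina and at most at 6.02 on the others of these arrays. Where it was not detected, the limits reached 27.4 (−30 D crystalline lens). Its counterpart from the other miR-30c hairpin, mmu-miR-30c-1-3p, was detected on the 0 D retina array alone, at 1.31. mmu-miR-30d-3p was detected on no array.

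mmu-miR-384-5p, which has the family's seed, is encoded on the X chromosome at chrX:105344282-105344369 (minus strand). It was detected on 9 arrays, at 17.3, 26.9 and 24.4 in the SCN, 7.89, 9.71 and 8.41 in the LGN, and 7.22, 8.43 and 5.66 in the retina. All SCN arrays were above those of the LGN and retina, which overlapped with each other. On 2 of the SCN arrays both probes were above 3 errors and elsewhere 1, so that no fold is given between these tissues. It was detected in none of the other 5 tissues. In means over the 3 arrays, the SCN was at least 4.15-fold higher than the iris, 2.77-fold than the choroid and 2.43-fold than the sclera. The same bound was 1.15-fold for the cornea, but in the normal group the SCN signal of 17.3 lay under the cornea limit of 24.3. No bound followed for the crystalline lens, where the limits were 21.9 to 27.4. The order of tissues thus differed from that of the 5p members, which had the retina on top.

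**Figure D3:**
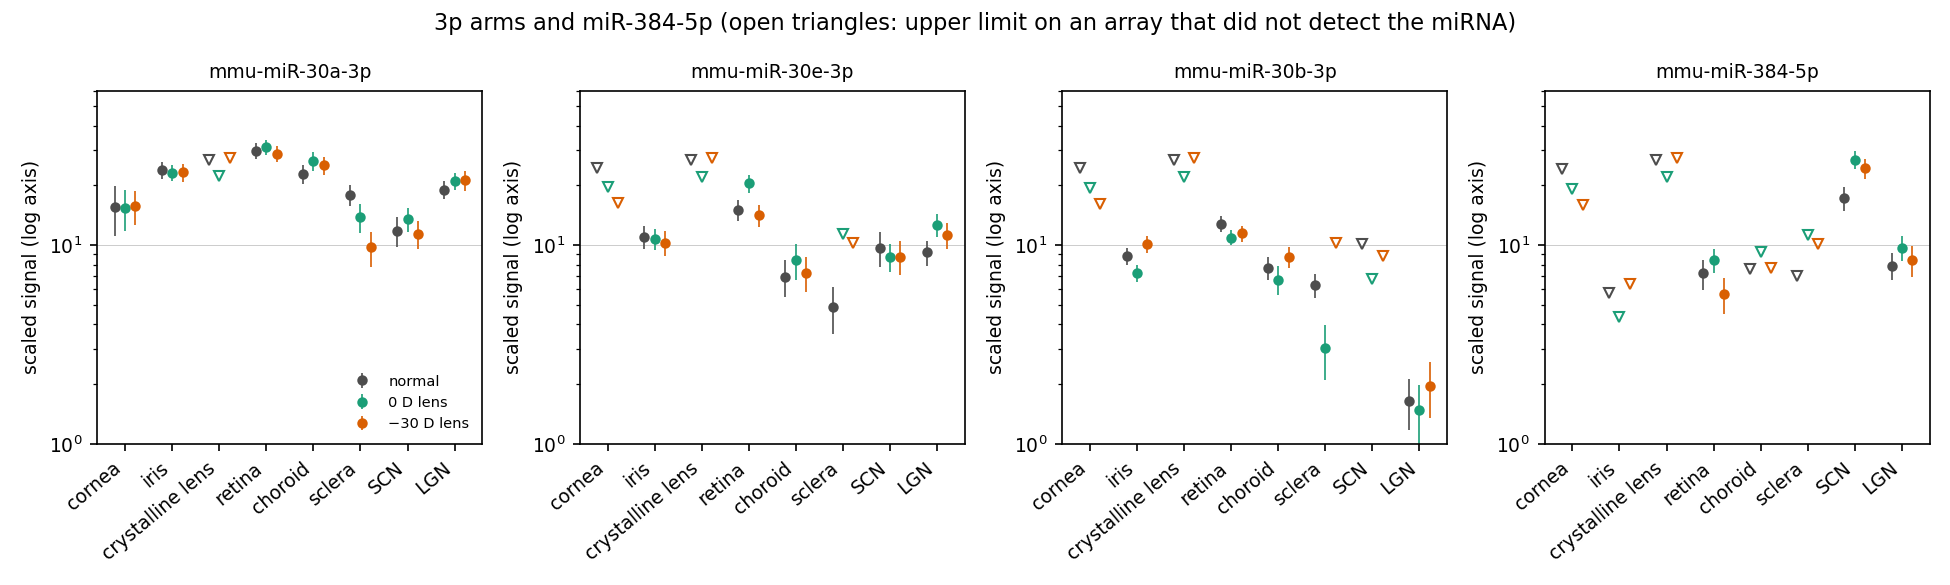
Scaled signal of the 3p strands and mmu-miR-384-5p in 8 tissues, 1 point per array, with open triangles for the upper limit on arrays that did not detect the miRNA. Among the tissues that detected it, mmu-miR-384-5p is highest in the SCN (17.3 to 26.9). Limits in the crystalline lens (22.2 to 27.5 for mmu-miR-30a-3p, 21.9 to 27.4 for mmu-miR-384-5p) are close to the levels measured elsewhere.

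For miR-30a and miR-30e both arms of 1 hairpin could be compared. The arm ratio is the 5p over the 3p fluorescence of 1 array, which no scaling between arrays changes, and like the shares it is not a ratio of molecules. The log2 ratio of miR-30a was 4.02 to 5.01 over 21 arrays, with a median of 4.38 (20.8-fold). That of miR-30e was 2.88 to 3.61 over 16 arrays, with a median of 3.31 (9.89-fold). The 5p strand was the brighter on each of these arrays.

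For miR-30a the log2 ratio was 4.18, 4.02 and 4.16 in the LGN, 4.30, 4.16 and 4.35 in the choroid, 4.43, 4.17 and 4.27 in the retina, and 4.42, 4.31 and 4.49 in the iris. It was 4.61, 4.43 and 4.68 in the cornea, 4.88, 4.18 and 4.74 in the SCN, and 4.38, 4.93 and 5.01 in the sclera. The highest values came from the tissues in which the 3p strand was dimmest. There, 1 of the 2 probes of mmu-miR-30a-3p was often not above 3 errors. On the 7 arrays with 1 such probe the ratio was 4.43 to 5.01, and on the 14 with both it was 4.02 to 4.49. With the brightest probe of each strand alone, an alternative chosen after seeing the data, the tissue means were closer, from 4.08 in the cornea to 4.45 in the sclera, and the SCN was at 4.28.

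For miR-30e the log2 ratio was 3.44, 3.48 and 3.54 in the iris, 3.33, 2.88 and 3.23 in the retina, and 3.33, 3.17 and 3.31 in the choroid. It was 3.31, 3.30 and 3.34 in the SCN, 3.24, 3.01 and 3.05 in the LGN and 3.61 in the normal sclera. The 3 iris arrays lay above those of the retina, choroid, SCN and LGN, and the single sclera value above all. That sclera value had a log2 error of 0.40 within the array. The lowest value, 2.88 on the 0 D retina array, came from the only array with both probes of mmu-miR-30e-3p above 3 errors. On the other 15 arrays 1 probe was.

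Both arms of 6 hairpins were detected on all 15 arrays of the iris, retina, choroid, SCN and LGN, and the ratios of these 6 were fitted with limma. Both family ratios differed over the 5 tissues (adjusted p = 0.0177 for miR-30a and 0.0248 for miR-30e), as did 100% of the 6 tested. With the −30 D arrays left out neither passed (adjusted p = 0.364 for each), nor did miR-30a without the normal arrays (0.158) or miR-30e without the 0 D arrays (0.112). Against the other 4 tissues the miR-30e ratio was higher in the iris by 0.28 ± 0.08 (adjusted p = 0.00898) and by the same 0.28 with the brightest probes (adjusted p = 0.000715), where 83.3% of the 6 were called. It did not pass with the −30 D arrays left out (adjusted p = 0.149). The miR-30a ratio in the iris did not pass (0.09, adjusted p = 0.369), but was called higher with all probes (0.16, adjusted p = 0.00299). The same ratio was also called higher with the brightest probes (0.17, adjusted p = 0.00401) and after normexp (0.37, adjusted p = 2.57e-05). In the LGN the ratio was lower by 0.27 for miR-30a and by 0.20 for miR-30e (adjusted p = 0.0168 and 0.0378, 83.3% of the 6 called), and by 0.16 and 0.23 with the brightest probes (adjusted p = 0.00739 and 0.00279). With the −30 D arrays left out neither passed in the LGN (adjusted p = 0.185 and 0.362), nor did miR-30a without the normal arrays (0.0695) or miR-30e after normexp (−0.11, adjusted p = 0.126). The SCN difference of the miR-30a ratio, 0.33 (adjusted p = 0.0108, 33.3% of the 6 called), was −0.00 with the brightest probes (adjusted p = 0.953) and −0.62 after normexp, called in the opposite direction (adjusted p = 1.00e-07). The tissue means of miR-30a spanned 0.48 and those of miR-30e 0.38 on the log2 scale, whereas mmu-miR-1839 spanned 3.73, mmu-miR-652 2.27 and mmu-miR-29c 1.47. Between the neural and other tissues the ratios differed by −0.17 for miR-30a (7 tissues, exact permutation p = 0.429, smallest possible 0.0286) and by −0.19 for miR-30e (5 tissues, exact permutation p = 0.300, smallest possible 0.1).

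**Figure D4:**
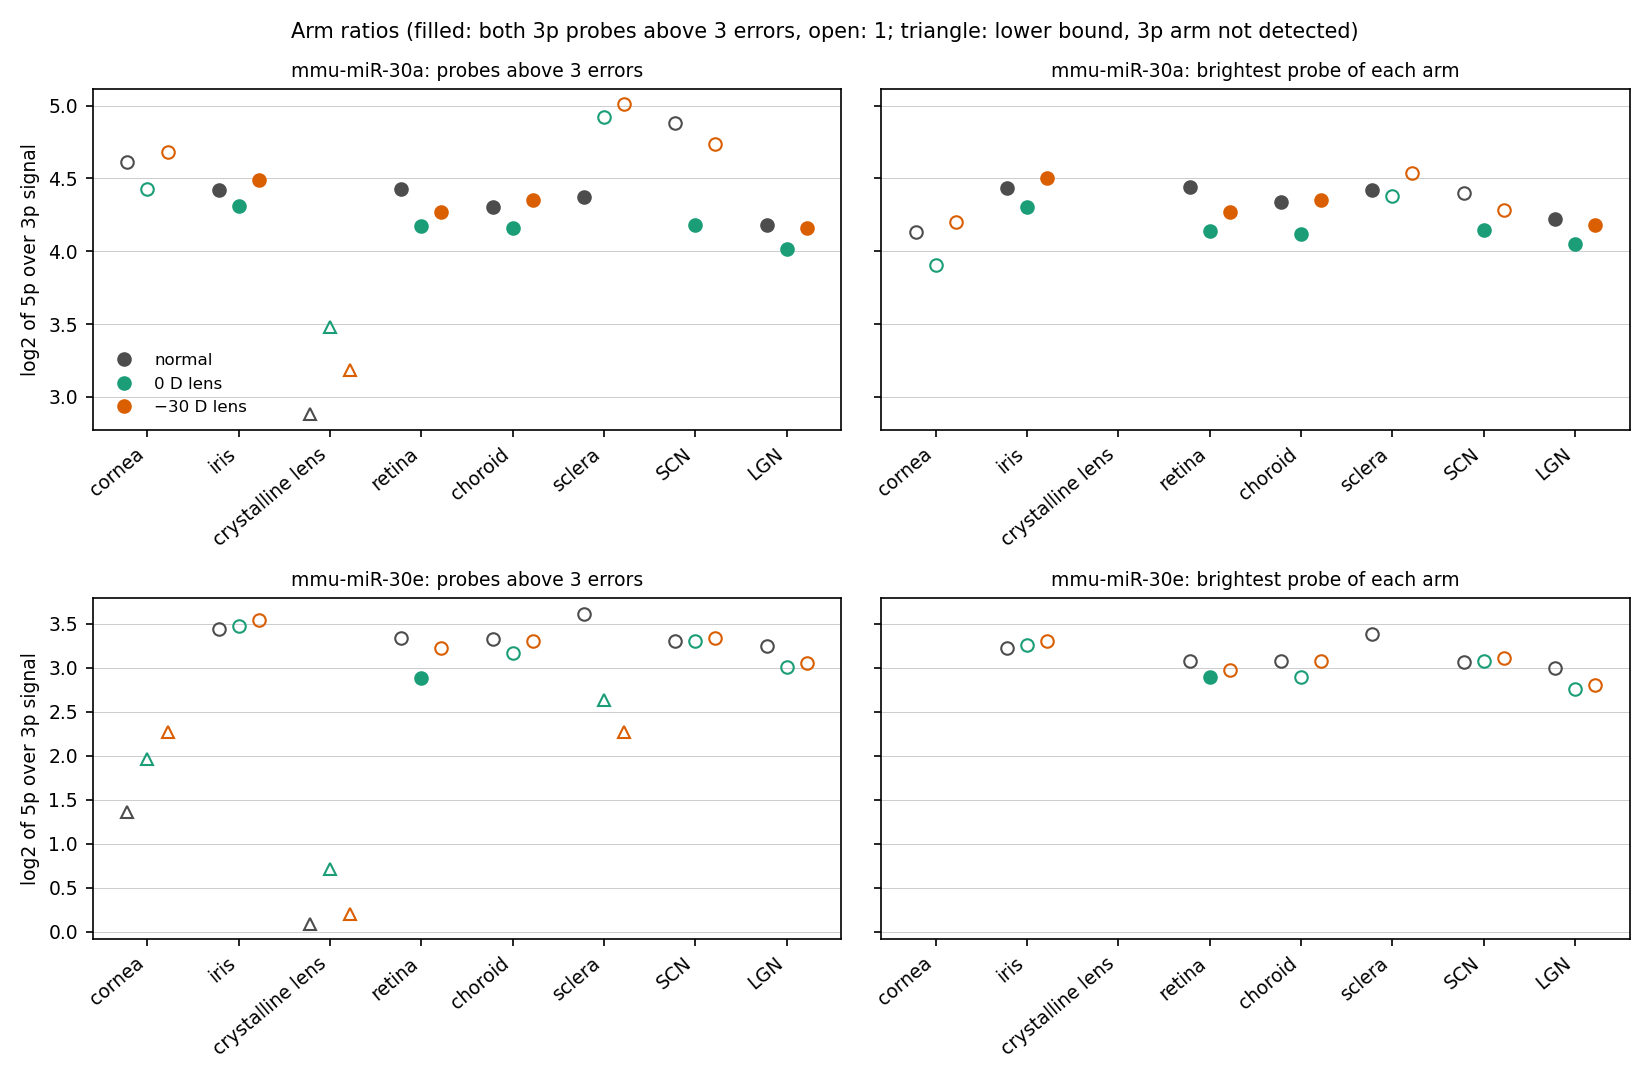
Log2 of the 5p over the 3p signal of miR-30a and miR-30e per array and tissue, from all probes above 3 errors and from the brightest probe of each strand. Filled points have both 3p probes above 3 errors, open points 1, and triangles are lower bounds where the 3p strand was not detected. The open miR-30a points (4.43 to 5.01) lie mostly above the filled ones (4.02 to 4.49).

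Lens groups were compared across tissues with limma on 190 miRNAs detected on the 3 arrays of at least 4 tissues, with the tissue as a block. The error here is the spread between tissues, not between mice. In −30 D against normal eyes, 0 of the 7 members were called, as were 0% of the 190, and at an unadjusted p under 0.05 there were 0 members and 18 miRNAs in all. Member differences ran from −0.10 ± 0.10 for mmu-miR-30a-3p to 0.10 ± 0.08 for mmu-miR-30c-5p, with a median of 0.01 for the members and −0.03 for all miRNAs. mmu-miR-30a-5p, for example, differed by 0.02 ± 0.08 and was higher in 5 and lower in 3 of 8 tissues.

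In 0 D against normal eyes 0 of 7 members were called (2.11% of the 190), and 2 had an unadjusted limma p under 0.05. mmu-miR-30c-5p was higher by 0.23 ± 0.08 (adjusted p = 0.139), in 7 of 8 tissues with the SCN as the exception, and mmu-miR-30b-5p by 0.19 ± 0.09 (adjusted p = 0.228), also in 7 of 8. In −30 D against 0 D eyes 0 of 7 were called (0.526%), and 1 had an unadjusted p under 0.05, mmu-miR-30b-5p at −0.19 ± 0.09 (adjusted p = 0.165). mmu-miR-30e-3p was lower in −30 D than in 0 D arrays in 5 of 5 tissues, by 0.20 ± 0.11 on the log2 scale, which did not pass (adjusted p = 0.298). The largest of these differences, in the retina, set 1 probe above 3 errors on the −30 D array against 2 on the 0 D array. For mmu-miR-30e-3p the difference was −0.11 without the retina, −0.13 with the brightest probe and 0.10 after normexp, none of them called. Without scaling between arrays, 5 members were called in 0 D against normal, as were 19.5% of all miRNAs, and 4 in −30 D against 0 D, as were 25.3%.

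**Figure D5:**
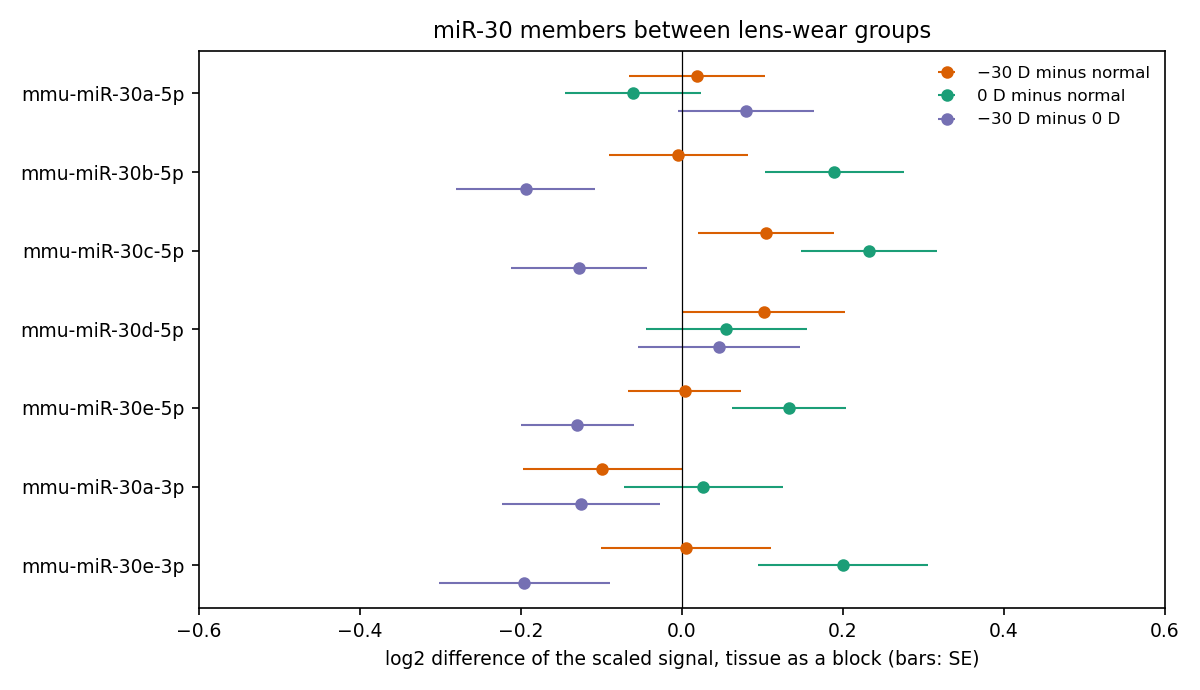
Log2 difference of the scaled signal of the 7 members between lens groups with the tissue as a block, with bars for 1 SE. The differences of −30 D against normal lie between −0.10 and 0.10, and the largest of all is that of mmu-miR-30c-5p in 0 D against normal (0.23 ± 0.08).

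The arm ratios were compared between lens groups in the same way over 13 hairpins. In −30 D against normal eyes the miR-30a ratio differed by 0.07 ± 0.10 and that of miR-30e by −0.04 ± 0.07, neither called (7.69% of the 13 were). In 0 D against normal they differed by −0.14 (adjusted p = 0.253) and −0.16 (adjusted p = 0.140), not called (7.69%), and in −30 D against 0 D by 0.21 (adjusted p = 0.131) and 0.12 (adjusted p = 0.167), not called (30.8%). With the brightest probes the miR-30a ratio was lower in 0 D than in normal eyes by 0.20 ± 0.04 (limma adjusted p = 0.000611, 23.1% of 13 called) and higher in −30 D than in 0 D by 0.19 ± 0.04 (adjusted p = 0.000989, 38.5% called). The 0 D array was then the lowest in 7 of 7 tissues, and in 6 of 7 with all probes. In −30 D against normal this ratio differed by −0.01 ± 0.04 (0% called). With all probes summed, also those not above 3 errors, the miR-30a ratio differed by −0.13 in 0 D against normal (limma adjusted p = 0.0393). In −30 D against 0 D the difference was 0.16 (adjusted p = 0.00859). With the sclera left out and only probes above 3 errors summed, these contrasts gave −0.26 and 0.24 (limma adjusted p = 0.0181 and 0.0162). With any other tissue left out of this fit neither was called. After normexp the miR-30a ratio differed by −0.02 in 0 D against normal (limma adjusted p = 0.692). It differed by 0.02 in −30 D against 0 D (adjusted p = 0.836). For miR-30e, normexp gave −0.16 in −30 D against 0 D (adjusted p = 0.0481), opposite in sign to the 0.12 above. The 0 D group cannot be told apart from its slide.

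Within single tissues, 1 array stood against 1 without a test, and the study's criteria were applied, a ratio above 2 or below its inverse where both arrays detected the miRNA and above 5 or below its inverse, with an undetected miRNA set to 0.1, where 1 did. In −30 D over normal 1 of 53 member and tissue pairs passed (17.2% of all pairs), in 0 D over normal 1 of 53 (15.6%) and in −30 D over 0 D 0 of 52 (15.4%). The pair that passed was in both cases mmu-miR-30e-3p in the sclera, lower by these criteria, which was detected at 4.87 on the normal array alone and lay under the limits of the others. Among the other arms, mmu-miR-30b-3p in the sclera was lower by these criteria in all 3 contrasts. Both contrasts with −30 D follow from setting its undetected −30 D array to 0.1. The limit on that array, 10.3, lay above the levels of 6.31 (normal) and 3.03 (0 D). The ratio of 0.481 in 0 D over normal sets 1 probe above 3 errors against 2, so that it does not measure a fold. mmu-miR-30c-2-3p in the LGN was lower in both contrasts with −30 D. mmu-miR-30c-1-3p in the retina was higher in 0 D over normal and lower in −30 D over 0 D. These calls also follow from undetected arrays set to 0.1. Their limits, 7.51 in the LGN and 6.15 to 6.24 in the retina, lay above every level of these strands detected there. Where both arrays detected a member, the ratio of −30 D over normal was 0.545 to 1.27. The lowest was mmu-miR-30a-3p in the sclera, with a log2 ratio of −0.88 ± 0.34 from the errors within the arrays. On the normal array 2 of its probes were above 3 errors and on the −30 D array 1, which this error does not cover.

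The sclera had the widest spread between groups for several members. Its −30 D over 0 D ratio was 0.599 for mmu-miR-30b-5p, 0.618 for mmu-miR-30d-5p, 0.697 for mmu-miR-30e-5p, 0.700 for mmu-miR-30c-5p and 0.750 for mmu-miR-30a-5p, and for each of these it was the lowest of the 8 tissues. The 0 D sclera array was the highest of the 3 for all 5p members. In the retina, where all 5p members were highest, their log2 ratio of −30 D over normal was −0.12 ± 0.18 (error within the arrays) for mmu-miR-30c-5p to −0.24 ± 0.18 for mmu-miR-30b-5p, and the other 3 lay between.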

How the data were processed

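Total RNA (cyanine 3) was hybridized to one-color Agilent mouse miRNA arrays. The authors deposited scanner files with background-subtracted probe signals (intensity) made with Agilent Feature Extraction 10.7.1.1, the version named in the submitters' processing notes. The 48 signal and flag columns of the deposited table were not used. Unique probes above 3 errors were summed per miRNA, because the printed total differed from this sum for 52 to 96 miRNAs per array. Sums were scaled to the 75th percentile of the 79 miRNAs detected on all 24 arrays (log2 factors −1.01 to 1.65). Between 6.86% and 13.2% of 1881 miRNAs were detected per array, and the number of arrays limits the precision. Errors within an array were propagated from the probe errors.

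Differences in log2 signal were tested with limma 3.58.1 under R 4.3.3, over tissues with the lens group in the model and over lens groups with the tissue as a block, at an adjusted p (Benjamini-Hochberg) of 0.05, and 8 quantities by an exact permutation test. The fits were tested on simulated data. The text names the members, the other arms of their hairpins, array miRNAs with the 5p seed, the 3 miRNAs whose tissue profile was most like the family's, and the 3 other hairpins with the widest arm ratios. Members and lists were chosen with earlier results of these data known. The alternatives were other scalings, normexp with an offset of 50, all probes, detection filters, ocular tissues only and left-out groups, tissues or arrays. The arm ratio fit over 5 tissues, the brightest probe and the omission of 1 SCN array were added after seeing the data, since no hairpin had both arms detected on all 24 arrays. Python 3.11.15 with numpy 2.4.6, pandas 2.3.3 and scipy 1.17.1 was used.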

Additional observations from a re-analysis of the deposited data

How the results depend on the processing

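The number of arrays limits the precision, each slide holds 1 lens group, and dim strands have wide errors. Lens groups were paired by tissue in the fits above, with the tissue as a block, and beyond this no paired analysis was possible because each tissue and lens group has 1 array. The high 5p signal of the retina and iris and the low signal of the crystalline lens were called for all 5 members with each lens group left out, and the exceptions after normexp follow. The log2 difference of retina and crystalline lens in the summed 5p signal was 1.85, and 3.99 without scaling, 1.59 after quantile normalization and 1.06 after normexp.

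In brackets stands the share of all miRNAs called in the same fit. Without scaling, 5 members were called in the cornea (77.2%), choroid (72.2%) and LGN (88.6%), 5 in 0 D against normal (19.5%) and 4 in −30 D against 0 D (25.3%). Quantile normalization gave 5 in the SCN (88.6%), and a filter of 12 arrays gave 1 in the LGN (76.1%). With 1 lens group left out, the number was 1 to 3 in the cornea (73.4% to 80.7%) and choroid (41.8% to 62.7%), 1 to 4 in the sclera (74.1% to 84.3%), 2 to 3 in the SCN (74.7% to 81.9%) and 1 in each case in the LGN (67.9% to 72.3%). For mmu-miR-30b-5p, the cornea difference was 0.068 after quantile normalization and 0.21 after normexp, and normexp gave −0.035 in the iris, 0.26 in the crystalline lens and −0.048 in the choroid. For mmu-miR-30e-5p, the SCN difference was −0.52 after quantile normalization and −0.056 after normexp, and the LGN difference −0.070 after normexp. The share of mmu-miR-30a-5p in the crystalline lens minus the other tissues was −4.78 percentage points, and that of mmu-miR-30b-5p in the retina 0.152, after normexp. The cause of these shifts was not tested.

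The median log2 arm ratio of miR-30a was 3.57 after normexp. That of miR-30e was 1.59 after normexp, 3.07 with all probes and 3.07 with the brightest probe. With 1 lens group left out, the F value over 5 tissues was 1.37 to 11.4 for miR-30a and 1.26 to 5.65 for miR-30e. By the study's criteria, 2 pairs passed without scaling and 2 after quantile normalization in −30 D over normal, and 2 and 3 in 0 D over normal. The alternative of a 75th percentile over all miRNAs equalled no scaling, since that percentile was 0.1 on every array, and the deposited table was not run, because its column letters have more than 1 reading. A fit of arm ratios over 7 tissues was not run, because miR-30a alone had both arms on all 21 arrays.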
